A study of Caenorhabditis elegans with 12 samples.

Results

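The UDP-glucuronosyltransferases, encoded by the ugt genes, are membrane enzymes of the endoplasmic reticulum that move a sugar from a UDP-sugar onto small lipophilic molecules, which makes these more soluble and easier to export. In mammals one member of this enzyme family conjugates bilirubin, a breakdown product of heme. In Caenorhabditis elegans the family is large, many members are expressed in the intestine, and the substrates of most single enzymes are not known. The members described here are the ugt genes followed by a number that the array annotation pairs with a probe set of their own, each by its probe set of highest mean over the arrays. This gave 64 genes of 17118 genes with a single symbol. They came from 68 probe sets, and 1 more probe set that carries several symbols was not used. The RefSeq annotation of the assembly WBcel235 lists 67 ugt genes, and ugt-34, ugt-49 and ugt-65 had no probe set of their own in this table. All 64 measured genes matched that annotation and are listed as protein coding. By chromosome, 40 lie on V, 11 on IV, 5 on I, 4 on X, 3 on III and 1 on II.

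Expression was measured on 12 Affymetrix arrays, in 4 groups of 3, with all animals collected in the middle or late part of the L4 stage, which precedes adulthood. The groups were hrg-2 mutants given 20 µM heme, hrg-2 mutants given 4 µM heme, wildtype animals given 20 µM heme and wildtype animals given 4 µM heme. The product of hrg-2 sits in membranes of hypodermal cells and takes part in the use of heme, and C. elegans makes no heme of its own and takes it up from its medium. The labels give no allele for the mutant and name no separate cultures behind the 3 arrays of each group, so a p-value here reflects the spread among those arrays alone and may hold only technical variation. All values are the authors' log2 expression values, and the array medians lay between 5.74 and 5.93. The value of a probe set depends on its own probes, so values are compared between arrays for the same gene and not between genes. A gene was called where its adjusted p from limma, with Benjamini-Hochberg adjustment over all 22548 probe sets tested, was under 0.05. No probe set is annotated with hrg-2, so the mutation itself could not be checked on these arrays. In whole animals, fewer cells of a type and less RNA per cell cannot be told apart.

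Within the groups the ugt genes varied more than most probe sets. The median standard error (SE) of a difference between 2 groups was 0.43 over the 64 genes, against 0.30 over all probe sets. This spread followed the array number in the titles. The median log2 value over the 64 genes was 5.51 in 20 µM mutants, 5.95 in 4 µM mutants, 5.59 in the 20 µM wildtype and 5.96 in the 4 µM wildtype on the arrays numbered 3. On the arrays numbered 1 and 2 it was 7.01 and 7.03 in 20 µM mutants, 7.22 and 7.27 in 4 µM mutants, 6.53 and 6.51 in the 20 µM wildtype and 6.80 and 6.99 in the 4 µM wildtype. Every array numbered 3 therefore had a lower family median than every other array. With the arrays numbered 1 and 2 alone, an alternative chosen after the data were seen, the median SE was 0.22 over the ugt genes and 0.22 over all probe sets.

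The first comparison asked which ugt genes follow the heme supply. The heme difference is given as 20 µM minus 4 µM heme, so a negative value means a lower level in animals with more heme. The clearest member was ugt-17, which fell at 20 µM. Averaged over both genotypes, 1 of the 64 genes was called, and it was ugt-17. Among all probe sets 0.0665% were called in this comparison.

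In mutants ugt-17 (probe set 191689_s_at) had log2 values of 7.46, 7.53 and 6.70 at 20 µM heme, against 9.80, 9.46 and 9.52 at 4 µM. In wildtype it had 7.50, 8.04 and 7.10 at 20 µM heme, against 8.98, 9.42 and 9.75 at 4 µM. All 6 arrays at 20 µM lay below all 6 arrays at 4 µM, in both genotypes and at every array number. The averaged heme difference was -2.10 ± 0.22 (SE, 95% interval from -2.59 to -1.61), a 4.29-fold lower level at 20 µM, with an adjusted p of 0.00489 in limma. In the mutants alone the difference was -2.37 ± 0.31 (SE, adjusted p = 0.0387), where 1 of 64 ugt genes and 0.0399% of all probe sets were called. In wildtype alone it was -1.84 ± 0.31 (SE, 3 of 3 pairs of same-numbered arrays lower), which did not pass (adjusted p = 0.249). In wildtype 0 of 64 ugt genes were called by limma and 4 were lower and 0 higher at an unadjusted p under 0.05, beside 0.0355% of all probe sets called and 0.905% and 0.488% lower and higher at that p. The difference between the 2 heme effects is tested with the genotype comparisons below and passed for no ugt gene.

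The call of ugt-17 averaged over genotypes held without each array in turn, with adjusted p between 0.00656 and 0.0288. The call in mutants alone was lost without any one of 5 of its 6 arrays. Its adjusted p was 0.151, 0.123 and 0.121 without the mutant 20 µM arrays numbered 1, 2 and 3. It was 0.311 and 0.196 without the mutant 4 µM arrays numbered 1 and 2, and 0.0413 without that numbered 3. The log2 difference stayed between -2.52 and -2.10 in these 6 fits. The suffix of the probe set marks probes shared by more than one transcript, and so do those of ugt-6, ugt-12, ugt-24, ugt-29, ugt-46, ugt-48, ugt-50 and ugt-64 below.

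**Figure D1:**
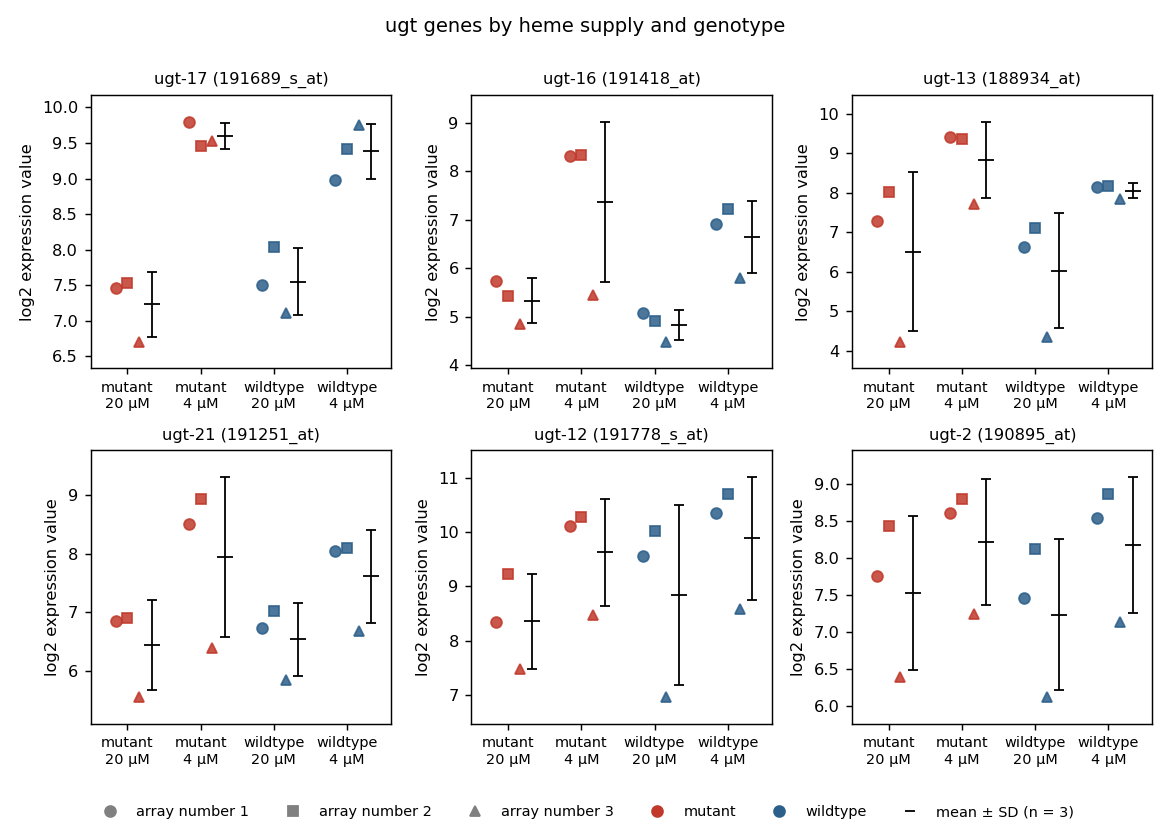
Log2 expression values (vertical axes, each with its own range) of 6 ugt genes at 20 and 4 µM heme, first in mutants and then in wildtype. Points are single arrays, with a shape for each array number, and bars are means ± SD (n = 3). The 6 arrays at 20 µM lie below the 6 at 4 µM for ugt-17, while for the other 5 genes the triangle of the array numbered 3 is the lowest point of each group and the 2 heme levels overlap when all 12 arrays are pooled.

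A further 4 genes were lower by more than 1 on the log2 scale in both genotypes. They are ugt-16, ugt-13, ugt-21 and ugt-12, and together with ugt-17 they make 5 of 64 ugt genes (7.81%), against 0.177% of all probe sets. None was higher by more than 1 in both genotypes, against 0.204% of all probe sets. The 2 heme differences share no arrays, but same-numbered arrays of the groups deviated together, so the differences may not be independent. The median SE was also larger over the ugt genes, 0.43 against 0.30 over all probe sets. The shares beyond 1 are therefore not directly comparable. Apart from ugt-17 and ugt-16, the members of this group were singled out after their values were seen.

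In mutants ugt-16 (191418_at) had log2 values of 5.74, 5.42 and 4.84 at 20 µM heme, against 8.31, 8.34 and 5.45 at 4 µM. In wildtype it had 5.08, 4.90 and 4.48 at 20 µM heme, against 6.90, 7.23 and 5.80 at 4 µM. The groups did not overlap in wildtype, and in mutants the 4 µM array numbered 3 lay within the range of the 20 µM arrays. The averaged difference was -1.93 ± 0.49 (SE, lower in 6 of 6 pairs), a 3.80-fold lower level at 20 µM, and it did not pass in limma (adjusted p = 0.679). Without the mutant 4 µM array numbered 3 it was -2.40 and passed (adjusted p = 0.0110).

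The values of ugt-13 (188934_at) in mutants were 7.28, 8.01 and 4.22 at 20 µM heme, against 9.41, 9.36 and 7.71 at 4 µM. In wildtype they were 6.63, 7.09 and 4.36 at 20 µM heme, against 8.15, 8.17 and 7.83 at 4 µM. Each 20 µM array lay below the 4 µM array of the same genotype and number. The averaged difference was -2.17 ± 0.69 (SE, adjusted p = 0.881 in limma).

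For ugt-21 (191251_at) the mutant values were 6.86, 6.91 and 5.55 at 20 µM heme, against 8.50, 8.94 and 6.39 at 4 µM. Its wildtype values were 6.74, 7.03 and 5.85 at 20 µM heme, against 8.04, 8.10 and 6.69 at 4 µM. Within each array number the 20 µM value was the lower one in both genotypes, while the arrays numbered 3 were low at both heme levels. The averaged difference was -1.29 ± 0.48 (SE, adjusted p = 0.932 in limma).

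For ugt-12 (191778_s_at) the mutant values were 8.35, 9.24 and 7.48 at 20 µM heme, against 10.12, 10.28 and 8.48 at 4 µM. Its wildtype values were 9.56, 10.03 and 6.95 at 20 µM heme, against 10.37, 10.71 and 8.59 at 4 µM. The heme levels overlapped across array numbers and did not within them. The averaged difference was -1.16 ± 0.62 (SE, adjusted p = 0.979 in limma).

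Across the family, lower levels at 20 µM were more frequent than higher ones. The averaged heme difference was negative for 43 of 64 genes (67.2%), against 55.4% of all probe sets, and its median was -0.12, against -0.03. With 1 array left out this median ranged from -0.25 to -0.03. It was -0.03 without the mutant 20 µM array numbered 3, -0.05 and -0.06 without the mutant 4 µM arrays numbered 1 and 2, and -0.06 without the wildtype 20 µM array numbered 3. It was -0.23 without the mutant 20 µM array numbered 2, -0.25 without the mutant 4 µM array numbered 3 and -0.21 without the wildtype 4 µM array numbered 3. The direction was thus kept in all 12 of these fits and the size was not. An unadjusted p under 0.05 was reached by 8 genes that were lower and 0 that were higher, beside 2.85% and 2.43% of all probe sets. These 8 are ugt-17, ugt-16, ugt-13, ugt-21, ugt-50, ugt-48, ugt-55 and ugt-20. Both genotypes were lower at 20 µM for 30 genes (46.9%, against 33.2% of all probe sets), both were higher for 12 (18.8%, against 26.3%), and the signs were opposite for 22 (34.4%, against 40.6%). In all 6 pairs of same-numbered arrays, 14 of 64 genes were lower at 20 µM, beside 3.87% of all probe sets, and 0 were higher, beside 2.73%. Among these 14, those not yet shown with a value are ugt-19, ugt-2, ugt-64, ugt-38, ugt-62, ugt-32, ugt-61, ugt-48 and ugt-50, with averaged differences between -1.30 and -0.18.

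When the array number was added to the model as a block, 3 ugt genes were called for heme averaged over genotypes, beside 0.155% of all probe sets. They are ugt-17 (adjusted p = 0.0031 in limma), ugt-21 (adjusted p = 0.0346) and ugt-2 (adjusted p = 0.0457). For ugt-21 the SE was 0.19 with the block and 0.48 without it, around the same difference. For ugt-2 (190895_at) the mutant values were 7.75, 8.43 and 6.39 at 20 µM heme, against 8.61, 8.80 and 7.24 at 4 µM. Its wildtype values were 7.46, 8.13 and 6.11 at 20 µM heme, against 8.54, 8.86 and 7.13 at 4 µM. All 6 pairs of ugt-2 differed in the same direction, with an averaged difference of -0.82 ± 0.12 (SE with the block), a 1.76-fold lower level at 20 µM. Just short of the threshold with the block were ugt-19 (adjusted p = 0.0553), ugt-16 (adjusted p = 0.0561) and ugt-13 (adjusted p = 0.0862).

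**Figure D2:**
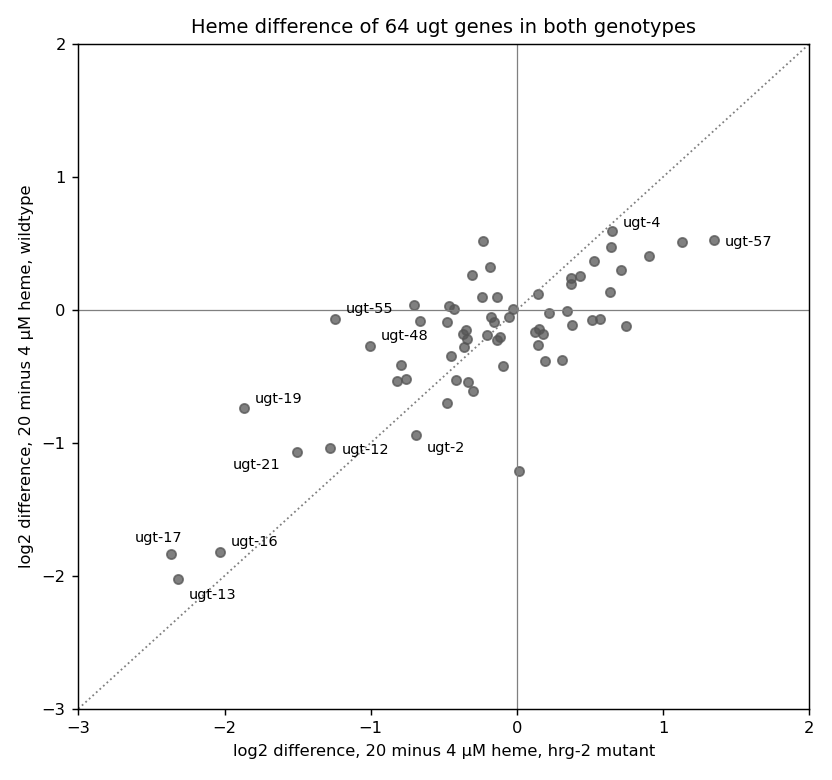
Log2 heme difference (20 minus 4 µM) of the 64 ugt genes in hrg-2 mutants (horizontal axis) and in wildtype (vertical axis), one point per gene, with the dotted line marking equal differences. The 5 genes lower by more than 1 in both genotypes lie at the lower left, and no gene lies beyond 1 in both at the upper right.

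Next to ugt-17 in p among the mutant heme differences was ugt-55. In mutants ugt-55 (190453_at) had 5.21, 5.57 and 4.71 at 20 µM heme, against 6.65, 6.72 and 5.86 at 4 µM. In wildtype it had 5.78, 6.35 and 4.82 at 20 µM heme, against 5.39, 6.06 and 5.72 at 4 µM. The mutant groups did not overlap and the wildtype groups did. The mutant difference was -1.25 ± 0.40 (SE, adjusted p = 0.769 in limma), and ugt-55 was the negative member of smallest p in the test of the genotype effects against each other, with -1.18 ± 0.57 (SE, adjusted p = 1.00).

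Non-overlapping groups were found for 4 lower genes and 1 higher gene in mutants, beside 4.47% and 4.87% of all probe sets. The lower ones are ugt-17, ugt-55, ugt-24 and ugt-14, and the higher one is ugt-39. In wildtype 7 genes were lower without overlap and 0 were higher, beside 4.04% and 2.64% of all probe sets. These 7 are ugt-17, ugt-16, ugt-50, ugt-20, ugt-13, ugt-67 and ugt-15. In wildtype ugt-50 (175566_s_at) had 9.10, 9.22 and 9.49 at 20 µM heme, against 9.79, 9.94 and 10.19 at 4 µM. Its wildtype difference was -0.70 ± 0.30 (SE, adjusted p = 1.00 in limma). Its other 2 probe sets gave wildtype differences of -0.78 and -0.70, so all 3 were lower at 20 µM.

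In limma on all 12 arrays with equal weights, no ugt gene was called higher at 20 µM. With array weights ugt-41 and ugt-43 were called higher in mutants, where 4.45% of all probe sets were called in either direction. The positive members of smallest p in mutants were ugt-43, ugt-31 and ugt-29. In mutants ugt-43 (191482_at) had 5.76, 5.76 and 4.24 at 20 µM heme, against 4.44, 4.13 and 4.48 at 4 µM. The arrays numbered 1 and 2 were higher at 20 µM and that numbered 3 was lower, with a difference of 0.91 ± 0.43 (SE, adjusted p = 0.806). In mutants ugt-29 (176819_s_at) had 7.46, 7.66 and 4.80 at 20 µM heme, against 5.67, 5.75 and 5.11 at 4 µM, and ugt-31 (176453_at) had the same order, higher in 2 of 3 pairs, with a difference of 0.75 ± 0.40 (SE, adjusted p = 0.825). In wildtype the positive members of smallest p were ugt-56, ugt-4 and ugt-41, with differences of 0.32, 0.59 and 0.48, none of which passed.

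With the arrays numbered 1 and 2 alone, limma called 21 ugt genes for heme averaged over genotypes (8.47% of all probe sets), of which 14 were lower and 7 higher. In the pair of arrays numbered 3, 14 of these 21 had the same sign (66.7%), against 41.4% of the probe sets called. In mutants 22 ugt genes were called (14% of all probe sets), 13 lower and 9 higher, and 11 of them (50%) had the same sign in pair number 3, against 34.8% of the probe sets called. In wildtype 1 was called (0.244% of all probe sets), ugt-16, with -2.07 (adjusted p = 0.00479) and the same sign in pair number 3.

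Genes of this family often lie side by side. In the gene order of WBcel235, 31 of the 67 annotated ugt genes lie in 10 runs with no other protein-coding gene between them. The genes of these runs are named here for their position. The longest run holds 7 genes on chromosome V, ugt-11, ugt-9, ugt-10, ugt-67, ugt-8, ugt-14 and ugt-13, and 1 protein-coding gene separates ugt-11 from ugt-12. Averaged over genotypes, the heme differences along it were -0.40, -0.02, -0.27, -0.26, -0.64, -0.29 and -2.17. The lower level at 20 µM was thus most marked at ugt-13, at one end of the run, and ugt-12, beyond the other end, had -1.16. In the run ugt-18, ugt-16 and ugt-15 the differences were -0.25, -1.93 and -0.45, so that ugt-16 had the largest one of the 3. In the pair ugt-19 and ugt-20 they were -1.30 and -0.44. Of the 5 genes with the lower level in both genotypes, no 2 are direct neighbours, and ugt-17 lies in no run.

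**Figure D3:**
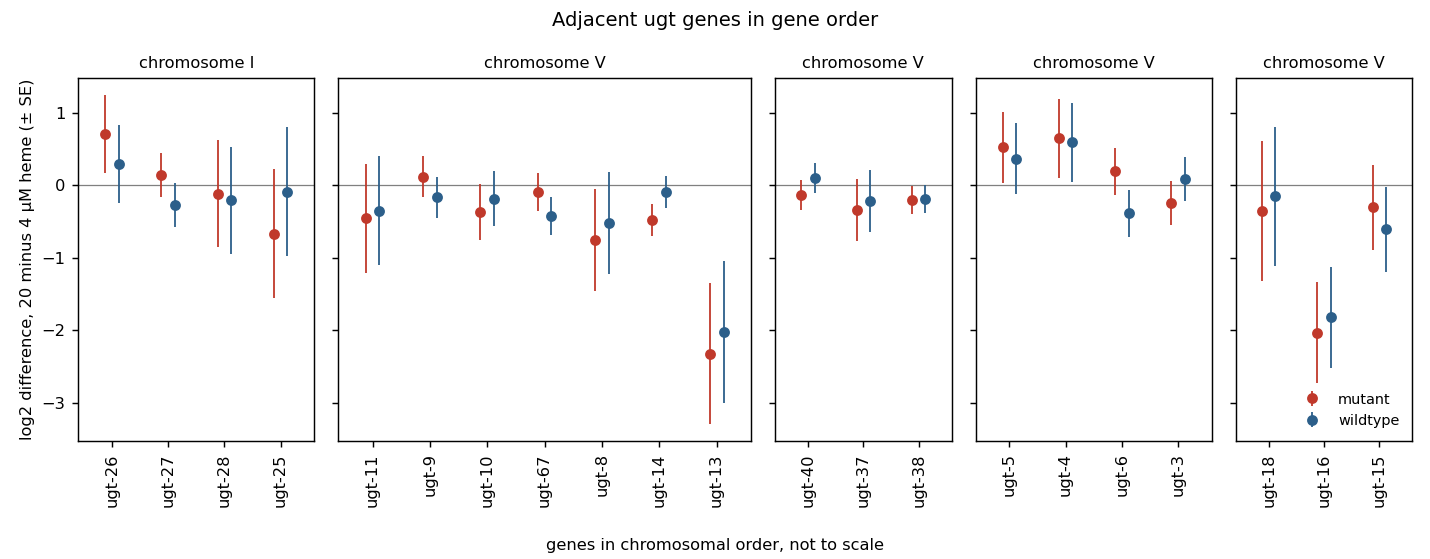
Log2 heme difference (20 minus 4 µM, ± SE from the fit) of the ugt genes in runs of 3 or more neighbours, in chromosomal order and not to scale, for mutants and wildtype. Within the longest run ugt-13 lies near -2 in both genotypes while the other 6 lie between -0.76 and 0.12, and in the last run ugt-16 stands below both neighbours.

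The second comparison asked how loss of hrg-2 alters the ugt genes at each heme level. The genotype difference is given as mutant minus wildtype. On all 12 arrays with equal weights no ugt gene was called at 4 µM, at 20 µM or averaged over both in limma, beside 0.00887%, 0.00443% and 0.00887% of all probe sets. With array weights 0, 1 and 4 were called, beside 0.0133%, 0.297% and 3.86% of all probe sets. At 4 µM 2 genes were higher and 0 lower at an unadjusted p under 0.05, beside 2.47% and 3.64% of all probe sets. At 20 µM 1 was higher and 2 were lower, beside 0.718% and 0.962%, and averaged over both heme levels 2 were higher and 1 was lower, beside 1.96% and 4.22%. The median difference was 0.09 at 4 µM and 0.09 at 20 µM, against 0.03 and -0.01 over all probe sets, and 40 and 41 of 64 genes were higher in mutants. These medians changed sign without single arrays. At 4 µM they were -0.02 and -0.01 without the mutant arrays numbered 1 and 2 and -0.05 without the wildtype array numbered 3, and at 20 µM -0.06 without the mutant array numbered 2 and -0.06 without the wildtype array numbered 3.

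The member of smallest p was ugt-4 (191053_at), which had higher values in mutants in 5 of 6 pairs. At 4 µM it had 5.52, 4.72 and 5.09 in mutants, against 3.54, 3.03 and 4.56 in wildtype. At 20 µM it had 6.10, 6.67 and 4.51 in mutants, against 3.98, 4.21 and 4.71 in wildtype. The groups did not overlap at 4 µM, while at 20 µM the mutant array numbered 3 lay below the wildtype array of that number. The averaged difference was 1.43 ± 0.39 (SE), a 2.69-fold higher level in mutants, with an unadjusted p of 0.00389 and an adjusted p of 0.737 in limma.

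In mutants ugt-7 (191568_at) was lower in all 6 pairs. At 4 µM it had 5.84, 5.74 and 5.11 in mutants, against 6.67, 7.10 and 5.56 in wildtype. At 20 µM it had 5.42, 5.47 and 5.35 in mutants, against 6.55, 6.95 and 5.56 in wildtype. The groups did not overlap at 20 µM, and at 4 µM the wildtype array numbered 3 lay within the mutant range. The averaged difference was -0.91 ± 0.30 (SE), a 1.88-fold lower level in mutants, which did not pass in limma (adjusted p = 0.784, and 0.147 with array number as a block).

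At 4 µM ugt-24 (191610_s_at) had 8.99, 8.57 and 8.35 in mutants, against 7.52, 7.67 and 8.30 in wildtype, with a difference of 0.81 ± 0.32 (SE, adjusted p = 0.791 in limma). At 20 µM it had 8.32, 8.25 and 7.23 in mutants, against 7.79, 7.91 and 7.90 in wildtype, and the groups overlapped. At 4 µM ugt-41 (190849_at) had 5.59, 5.66 and 6.05 in mutants, against 4.99, 4.93 and 5.16 in wildtype. Both genes were higher in mutants without overlap at 4 µM. At 20 µM ugt-41 had 6.88, 7.25 and 5.09 in mutants, against 5.88, 5.53 and 5.10 in wildtype, so that the arrays numbered 3 were nearly level. Its averaged genotype difference was 0.82 ± 0.33 (SE, adjusted p = 0.803 in limma).

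At 4 µM ugt-4, ugt-24 and ugt-41 were thus higher in mutants without overlap and 0 genes were lower, beside 4.84% and 4.28% of all probe sets. At 20 µM ugt-7 and ugt-56 were lower without overlap and 0 genes were higher, beside 3.69% and 3.03% of all probe sets. At 20 µM ugt-56 (191929_at) had 2.53, 2.64 and 2.69 in mutants, against 2.86, 3.24 and 3.25 in wildtype. The difference was -0.49 ± 0.19 (SE, adjusted p = 1.00 in limma), at values near the array minima of 1.76 to 1.92. The other genes of smallest p were ugt-14 (0.43 ± 0.22), ugt-39 (-0.47 ± 0.32) and ugt-33 (-0.35 ± 0.26) at 4 µM, and ugt-31 (0.86 ± 0.40) and ugt-1 (-0.61 ± 0.26) at 20 µM, given with SE, and none passed.

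**Figure D4:**
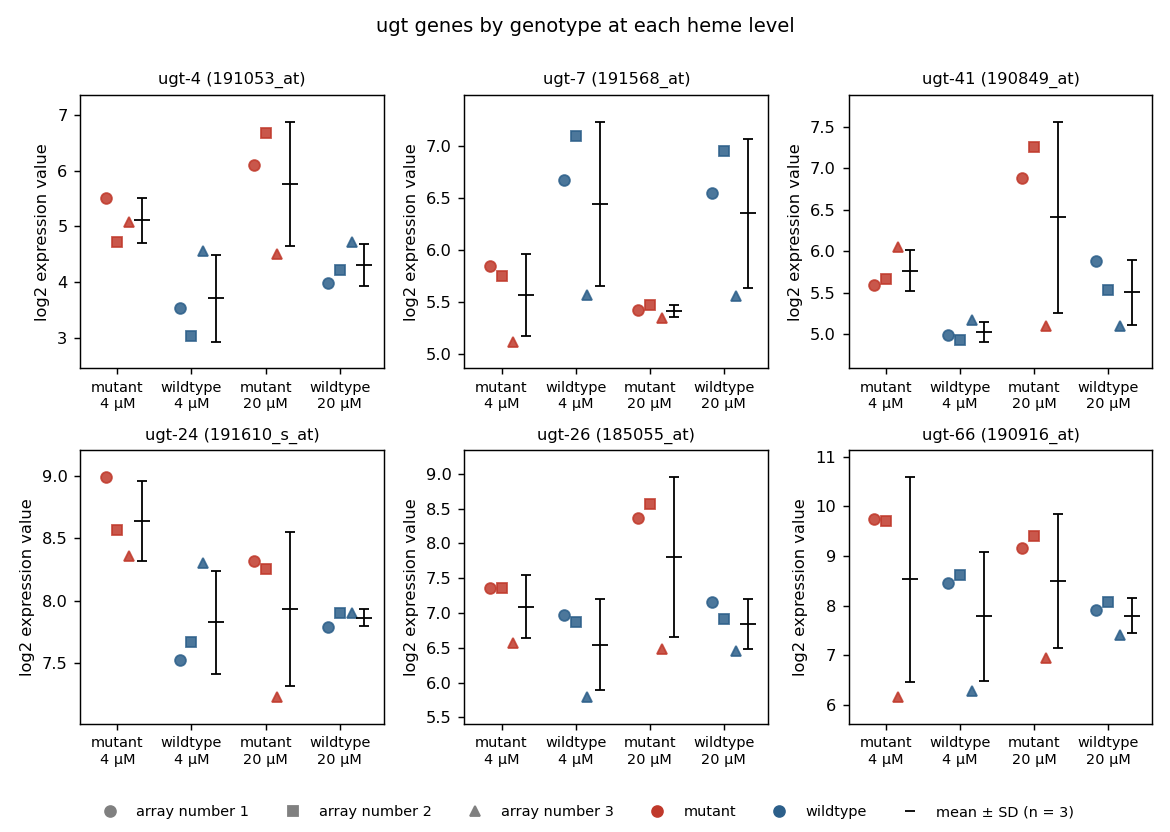
Log2 expression values (vertical axes, each with its own range) of 6 ugt genes in mutants and wildtype at 4 µM heme and in mutants and wildtype at 20 µM heme. Points are single arrays, with a shape for each array number, and bars are means ± SD (n = 3). For ugt-4 the mutant circles and squares lie above the wildtype ones at both heme levels, for ugt-7 they lie below, and the triangles of the arrays numbered 3 lie closer together.

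For ugt-66 the sign of the genotype difference went with the array number. At 4 µM ugt-66 (190916_at) had 9.74, 9.70 and 6.15 in mutants, against 8.46, 8.62 and 6.29 in wildtype. At 20 µM it had 9.16, 9.40 and 6.95 in mutants, against 7.91, 8.07 and 7.40 in wildtype. The mutant was higher on the arrays numbered 1 and 2 and lower on those numbered 3, at both heme levels. For ugt-26 (185055_at) the values at 4 µM were 7.36, 7.36 and 6.56 in mutants, against 6.97, 6.87 and 5.79 in wildtype. At 20 µM ugt-26 had 8.37, 8.56 and 6.49 in mutants, against 7.16, 6.92 and 6.45 in wildtype. It was higher in mutants in 6 of 6 pairs, with an averaged difference of 0.76 ± 0.38 (SE, adjusted p = 0.810 in limma).

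With the arrays numbered 1 and 2 alone, limma called 13 ugt genes at 4 µM (13% of all probe sets), 11 higher and 2 lower in mutants. At 20 µM it called 8 (1.22% of all probe sets), 7 higher and 1 lower. Called at both heme levels were ugt-4, ugt-7, ugt-15 and ugt-66, which are 30.8% of the 4 µM list and 50% of the 20 µM list. In the pair numbered 3, 5 of the 13 and 2 of the 8 had the same sign, against 33.7% and 38.2% of all probe sets called.

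The difference between the genotype effects, at 20 µM minus at 4 µM, is also the difference between the heme effects, in mutants minus in wildtype. No ugt gene was called in limma, 0 had an unadjusted p under 0.05 (1.65% of all probe sets), and 0 of 22548 probe sets were called. With array number as a block 4 ugt genes had an unadjusted p under 0.05 (3.22% of all probe sets), and with the arrays numbered 1 and 2 alone 18 did (18% of all probe sets), none with an adjusted p under 0.05. Beside ugt-55, the members of smallest p were ugt-33 with 0.69 ± 0.36 (SE), ugt-56 with -0.50 ± 0.27 (SE) and ugt-31 with 0.87 ± 0.57 (SE). For ugt-17 it was -0.53 (95% interval from -1.50 to 0.44), with an unadjusted p of 0.255.

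The third comparison set the arrays numbered 3 against those numbered 1 and 2 within the groups. This split was chosen because earlier results of these same data had shown the arrays numbered 3 to stand apart. Its p-values and counts therefore describe a difference already seen and are no independent test of it. Here 37 of 64 ugt genes were called in limma (57.8%), against 30.1% of all probe sets. Of these, 35 were lower on the arrays numbered 3 and 2 were higher, beside 18.7% and 11.4% of all probe sets. The median difference of the 64 genes was -0.67, against -0.06 over all probe sets, and 54 genes (84.4%) were lower, against 56.3%. For 24 genes every array numbered 3 lay below every other array, beside 9.03% of all probe sets. Lower by more than 1 were 24 genes, and by more than 2 there were 5, namely ugt-57, ugt-44, ugt-66, ugt-18 and ugt-25.

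On the arrays numbered 3, ugt-44 (191445_at) had 6.08 in 20 µM mutants, 6.29 in 4 µM mutants, 6.93 in the 20 µM wildtype and 6.33 in the 4 µM wildtype. On the arrays numbered 1 and 2 it had 8.52 and 8.89 in 20 µM mutants, 8.26 and 8.40 in 4 µM mutants, 8.36 and 8.59 in the 20 µM wildtype and 8.88 and 9.22 in the 4 µM wildtype. All 4 arrays numbered 3 lay below the other 8, with a difference of -2.23 ± 0.19 (SE), a 4.70-fold lower level, and an adjusted p of 3.92e-05 in limma. For ugt-25 (184602_at) the values were between 6.38 and 6.78 on the arrays numbered 3, against 8.18 to 9.46 on the others, a difference of -2.05 ± 0.19 (SE). The gene ugt-22, which has been linked in C. elegans to how well the anthelmintic albendazole works, had a difference of -1.04 ± 0.19 (SE, adjusted p = 0.00171).

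The 2 genes called higher were ugt-52 and ugt-33. On the arrays numbered 3, ugt-52 (191550_at) had 6.94 in 20 µM mutants, 6.32 in 4 µM mutants, 7.08 in the 20 µM wildtype and 6.58 in the 4 µM wildtype. On the arrays numbered 1 and 2 it ranged from 5.53 to 6.48, so that it was higher on number 3 in each group, by 0.79 ± 0.19 (SE, adjusted p = 0.00857 in limma). For ugt-33 the difference was 0.48 ± 0.13 (SE, adjusted p = 0.0179). Some members of the earlier comparisons were not called here. The difference of ugt-17 was -0.25 and that of ugt-4 was -0.00, and ugt-23 (190579_at), which stayed between 9.63 and 10.32 on all 12 arrays, had -0.12 on the same scale.

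**Figure D5:**
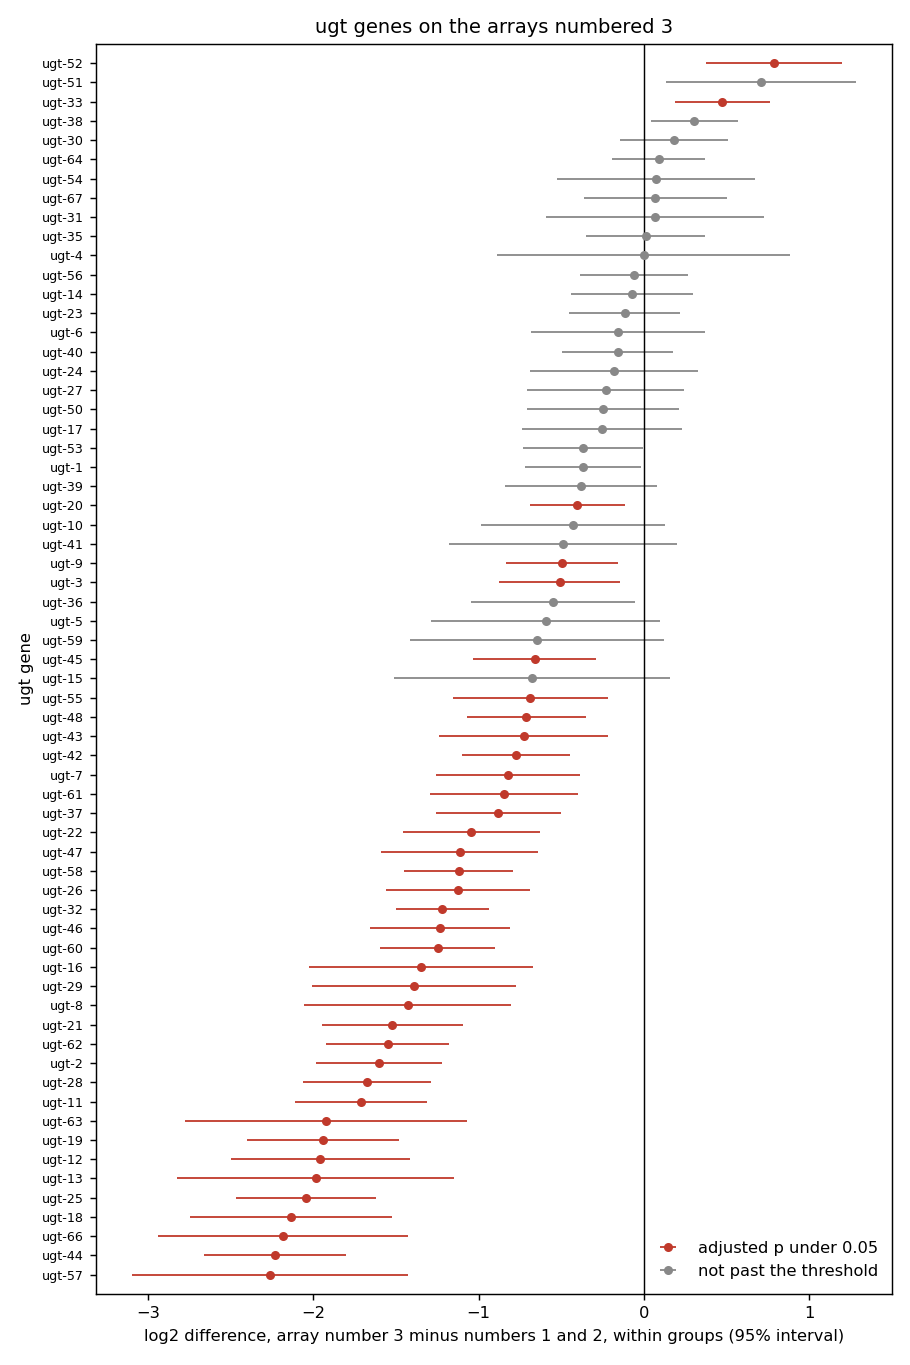
Log2 difference of the arrays numbered 3 from those numbered 1 and 2, within groups (horizontal axis), for each of the 64 ugt genes (vertical axis), with 95% intervals. Genes called at an adjusted p under 0.05 are red, 35 of them on the negative side and 2 on the positive side.

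The shift was present in each group. The median difference of the array numbered 3 from the mean of the other 2 was -0.81 in 20 µM mutants, -0.81 in 4 µM mutants, -0.54 in the 20 µM wildtype and -0.50 in the 4 µM wildtype. Over all probe sets it was 0.01, -0.22, -0.06 and 0.00 in the same order. In 4 µM mutants 64.7% of all probe sets were lower on the array numbered 3, against 82.8% of the ugt genes. The array median was not lower there, with 5.81 against 5.74 and 5.75 on numbers 1 and 2. Marker genes of other tissues moved with array number too in the fit over all 4 groups. Of all probe sets 11.4% were called higher and 18.7% lower on the arrays numbered 3, and the counts below stand beside these shares. All 9 measured sperm markers and 8 of 9 oocyte and eggshell markers were called higher on the arrays numbered 3, with medians of 2.47 and 1.65. The median log2 value over the sperm list ranged from 7.12 to 8.70 on the arrays numbered 3, against 4.62 to 7.61 on the others, and that of the oocyte and eggshell list from 7.58 to 9.81, against 6.23 to 7.06. Of 10 intestine markers 4 were called lower and 1 higher (median -0.27), and of 8 neuron markers 4 were called lower and 0 higher (median -0.50). Of 8 hypodermis markers 3 were called higher and 0 lower (median 0.21). Of 6 germ line markers 2 were called higher (median 0.62) and of 5 yolk genes 1 was (median 1.65), and all 6 and all 5 had positive differences. Of 7 muscle markers 0 were called, and the same 7 gave 0 with an unadjusted p under 0.05. The list medians did not follow the pooled direction in every group. In 20 µM mutants they were 7.61, 6.77 and 7.12 for sperm and 10.15, 10.60 and 10.79 for intestine on numbers 1, 2 and 3. In the other groups number 3 had the highest sperm and the lowest intestine median. For yolk the 4 µM wildtype had 9.66, 7.30 and 6.06, while number 3 was highest in both mutant groups. The part of these markers in the shift of the ugt genes was not tested.

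For heme averaged over genotypes 0.0665% of all probe sets were called, against 30.1% for array number 3. A count of 0 called in a short marker list therefore says little in the heme comparison. Averaged over genotypes, 0 markers of any tissue list were called in limma between 20 and 4 µM. At an unadjusted p under 0.05, 1 intestine marker was higher and 1 lower, beside 2.43% and 2.85% of all probe sets. The intestine median was -0.00. Of 8 hypodermis markers 2 were higher and 0 lower at that p (median 0.19). In mutants alone 3 were higher and 0 lower (median 0.35), beside 6.16% of all probe sets in either direction at that p. The sperm median was 0.67 and the yolk median 0.52, with 0 of 9 and 0 of 5 genes at an unadjusted p under 0.05. Neurons, muscle, germ line and oocyte and eggshell also had 0 genes at that p, with medians of -0.15, 0.14, 0.10 and -0.09. The part of these markers in the heme differences was not tested. Between mutants and wildtype, averaged over heme, 0 markers were called, beside 0.00887% of all probe sets. The medians were -0.30 for intestine, 0.53 for sperm and -1.80 for yolk. Yolk protein genes are active in the adult intestine, and the median log2 value over that list ranged from 5.32 to 8.58 in 20 µM mutants, 5.27 to 9.31 in 4 µM mutants, 7.80 to 9.41 in the 20 µM wildtype and 6.06 to 9.66 in the 4 µM wildtype. Their part in the differences of ugt-4 and ugt-7 was not tested.

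Other genes of the same detoxification route were read from the same fit. For heme averaged over genotypes this fit called 0.0665% of all probe sets. At an unadjusted p under 0.05, 2.43% of all probe sets were higher and 2.85% lower. The enzymes need UDP-sugars, and of 13 measured genes of UDP-sugar supply, among them nucleotide-sugar transporters, 0 were called for heme averaged over genotypes (median 0.17) and 0 at an unadjusted p under 0.05. The 21 ABC exporters, which pump conjugates and other molecules out of cells, gave 0 called and 2 lower at an unadjusted p under 0.05 (median -0.15), and 1 was called with array number as a block. The exporter of smallest p was mrp-5, with -1.51 ± 0.22 (SE, adjusted p = 0.0533 in limma). This gene is known as a heme exporter, and whether its difference bears on conjugate export was not tested. Of 43 glutathione S-transferase genes, the other large family of conjugating enzymes, 2 were called and both were lower at 20 µM (median 0.13). They are gsto-1, with -2.97 ± 0.24 (SE, adjusted p = 0.0010 in limma), and gst-17, with -1.99 ± 0.28 (SE, adjusted p = 0.0444). The 47 cytochrome P450 genes of phase I had 0 called, 1 higher at an unadjusted p under 0.05 and a median of -0.06. The 30 short-chain dehydrogenases had 0 called, 3 higher and 2 lower at an unadjusted p under 0.05 and a median of 0.15. Of 17 regulators of detoxification, 0 were called, and those of smallest p were the nuclear receptor genes nhr-66, with -0.55 ± 0.14 (SE, adjusted p = 0.679), and nhr-68, with 0.76 ± 0.34 (SE, adjusted p = 0.944).

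Between mutants and wildtype, averaged over heme, 0 genes of any of these 6 lists were called in limma, beside 0.00887% of all probe sets. At an unadjusted p under 0.05, 1.96% of all probe sets were higher and 4.22% lower. At that p there were 7 lower and 1 higher glutathione S-transferase genes (median -0.32). There was also 1 lower regulator, nhr-68, with -0.83 ± 0.34 (SE, adjusted p = 0.803). The ABC exporters gave 1 higher and 1 lower at that p, the cytochrome P450 genes 1 higher and 2 lower, the short-chain dehydrogenases 0 higher and 1 lower, and UDP-sugar supply 0 of either. In UDP-sugar supply the smallest p values belonged to hut-1, with -0.50 ± 0.25 (SE), and ugtp-1, with -0.47 ± 0.25 (SE), both transporters of nucleotide sugars by annotation, and neither passed. On the arrays numbered 3 the lists moved like the ugt genes in part, with 20 of 43 glutathione S-transferases, 12 of 21 ABC exporters and 16 of 30 short-chain dehydrogenases called lower, beside 18.7% of all probe sets. So were 7 of 17 regulators, 4 of 13 genes of UDP-sugar supply and 14 of 47 cytochrome P450 genes. Called higher were 3 short-chain dehydrogenases, 3 cytochrome P450 genes and 2 genes of UDP-sugar supply, beside 11.4% of all probe sets.

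Of the 64 genes, ugt-46, ugt-48 and ugt-50 had more than one probe set. For ugt-50 the heme differences averaged over genotypes were -0.59, -0.87 and -0.56 and agreed in sign, while the genotype differences were 0.18, -0.12 and -0.02. For ugt-48 the averaged heme differences were -0.64 and -0.36. Those of ugt-46 were -0.22 and 0.01, of opposite sign, whereas its differences on the arrays numbered 3 were -1.23 and -1.41 and both passed. The probe sets of highest mean over the 12 arrays belonged to ugt-6, ugt-23, ugt-50, ugt-46 and ugt-12, with means of 10.53, 9.94, 9.71, 9.26 and 9.18. Those of lowest mean belonged to ugt-56, ugt-38 and ugt-35, with means of 2.83, 2.66 and 2.63 near the array minima. None of these 8 probe sets was called for heme or genotype in limma on all 12 arrays with equal weights, and ugt-50 was called for heme averaged over genotypes with array weights.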

How the data were processed

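Per the submitters' processing notes, the authors made the deposited log2 values with RMA (background correction, normalization across arrays and a summary of each probe set) in Partek 6.5, whose settings the sources used here do not give. Of 22625 probe sets 77 controls were left out. Gene names came from the platform annotation, with gene order from RefSeq (WBcel235). Coordinates were used only to order the genes, and no sequence was used.

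Differences were tested two-sided with lmFit and eBayes of limma 3.58.1 (R 4.3.3), with 4 group means on 12 arrays, 8 residual and 2.24 prior degrees of freedom, and Benjamini-Hochberg adjustment over 22548 probe sets, and the fit was tested on simulated data. The array number was compared with the groups as a covariate. Folds are powers of 2 of the log2 differences. Precision is limited by the 3 arrays per group.

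The members, lists and tests were chosen with earlier results of these data known. The genes named are every member past the threshold, for each comparison within 1 genotype or heme level the 3 positive and 3 negative members of smallest p (2 and 2 for the others), the 5 of highest and 3 of lowest mean, and those with several probe sets. Neighbours were named for position. Outside this rule, chosen after their values were seen, are ugt-13, ugt-21, ugt-12, ugt-2, ugt-19 and other genes lower in 6 pairs for heme, the remaining genes counted as not overlapping, ugt-15, ugt-26 and ugt-66 for genotype, and ugt-4, ugt-17 and ugt-23 for array number. Among the exporters mrp-5 was also named after its values were seen.

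The labels do not say that equal array numbers pair the arrays. Deviations from the group means of same-numbered arrays correlated across probe sets at r from 0.255 to 0.817 in the 12 pairs of same-numbered arrays of the groups compared, so the numbers were used as a block in an alternative. The differences of array 1 minus array 2 correlated at r from 0.0653 to 0.452 in the 4 pairs of groups, so the first values rest in part on the arrays numbered 3. Other alternatives were median centring, repeated quantile normalization, array weights, probe sets above the median mean, no moderation, 2 groups alone, every ugt probe set counted, each array left out and, chosen after the data were seen, the arrays numbered 1 and 2 alone.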

Additional observations from a re-analysis of the deposited data

How the results depend on the processing

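Of 138 alternatives run on the counts of ugt genes called, 117 stayed within 1.5 times the reported count and 21 did not. With array weights the counts were 1 for genotype at 20 µM, 4 for genotype averaged over heme, 8 for heme in mutants, 1 for heme in wildtype and 4 for heme averaged over genotypes, against 0, 0, 1, 0 and 1 as reported. Of all probe sets array weights called 0.297%, 3.86%, 4.45%, 0.0665% and 1.30% in these comparisons. These calls are ugt-17, ugt-16, ugt-21, ugt-19, ugt-48 and ugt-55, lower, and ugt-41 and ugt-43, higher, for heme in mutants, ugt-4 at 20 µM, ugt-4, ugt-7, ugt-24 and ugt-41 averaged over heme, ugt-17 for heme in wildtype, and ugt-17, ugt-16, ugt-21 and ugt-50 for heme averaged over genotypes. With array number as a replicate block 3 genes were called for heme averaged over genotypes, and the block changed no other count of ugt genes called. In mutants 0 were called for heme without moderation and 0 with the 2 groups alone, where ugt-17 had adjusted p values of 0.135 and 0.293 in limma. With 1 array left out that count ranged from 0 to 2, and the count for heme averaged over genotypes from 1 to 2, where the second gene in both cases was ugt-16 without the mutant 4 µM array numbered 3. With the arrays numbered 1 and 2 alone the counts were 13 for genotype at 4 µM, 8 at 20 µM and 19 averaged (13.3% of all probe sets), and 22 for heme in mutants, 1 in wildtype and 21 averaged. For array number 3 the count ranged from 30 to 36 with 1 array left out, against 37. The call of ugt-17 for heme averaged over genotypes was kept under every alternative run on it, with adjusted p between 0.000405 and 0.0374 in limma. Median centring moved the genotype median at 4 µM to 0.16 over all probe sets and 0.23 over the ugt genes, against 0.03 and 0.09. Over the 73 results of named genes, 1162 alternatives were run, of which 1073 were rated the same, 59 weaker and 30 stronger. There were 0 changes of sign in a called value. Apart from those of ugt-17, the heme and genotype results were not called as reported, so they held no called value whose sign could change. The cause of the changed counts and medians was not tested. The 3 arrays of a group limit what could pass, and values near the array minima carry little signal.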
